A study of Caenorhabditis elegans with 8 samples.

Results

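RNA sequencing of whole Caenorhabditis elegans compared the hel-1(gk148684); daf-2(e1370) double mutant (strain IJ1121, 2 libraries) with the daf-2(e1370) single mutant (strain CF1041, 2 libraries), so that both groups carried the daf-2 mutation and only the double mutant also carried the hel-1 mutation. These 4 libraries were chosen by their labels from the 8 of the study. The other 4, 2 of hel-1(gk148684) (strain IJ501) and 2 of wild type (strain N2), entered the same statistical model and served to ask whether the hel-1 effect differed between backgrounds. Every genotype was a single strain, sampled as day 1 adults raised at 20 °C from synchronised eggs, in biological repeats that the labels call independent. The study's title places HEL-1 upstream of the transcription factor DAF-16/FOXO, and the comparison asks what the hel-1 mutation does to gene expression when insulin/IGF-1 signaling is already low.

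DAF-2 is the worm's insulin/IGF-1 receptor. Through the phosphoinositide 3-kinase AGE-1 and the AKT kinases it keeps DAF-16 out of the nucleus, so that a weakened receptor lets DAF-16 activate genes of stress resistance, metabolism and innate immunity, and daf-2 mutants are known for their long life. HEL-1 is a DEAD-box RNA helicase whose mammalian relatives, DDX39A and DDX39B, act in splicing and in export of mRNA from the nucleus.

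Values are CPM (counts scaled to the size of the library), computed from the deposited expected counts with edgeR's scaling between libraries, which hold 31555368 to 37552513 counts each. A gene is called changed where its Benjamini-Hochberg adjusted p over all 13722 tested genes was under 0.05 in the quasi-likelihood test of edgeR, and log2 fold changes run as hel-1;daf-2 over daf-2 with their standard errors (SE). One daf-2 library stood apart before any gene is considered. The standard deviation (SD) of the log2 difference across genes was 0.183 between the hel-1;daf-2 libraries, and daf-2 replicate 1 differed from them by 0.227 and 0.248. Daf-2 replicate 2 differed from the hel-1;daf-2 libraries by 0.529 and 0.51, and from daf-2 replicate 1 by 0.446. The called genes, and several other genes and lists, are therefore also given against daf-2 replicate 1 alone and against daf-2 replicate 2 alone. There the lone library is assumed to vary like the other groups.

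Transcripts of the mutated genes themselves were present at similar levels. The hel-1 gene had 535 and 526 CPM in hel-1;daf-2 worms, against 547 and 468 CPM in daf-2 worms, and 565 and 526 CPM in hel-1 worms, against 618 and 601 CPM in wild type. Its log2 fold change was 0.06 ± 0.10 (edgeR adjusted p = 0.682), −0.04 against daf-2 replicate 1 alone and 0.21 against daf-2 replicate 2 alone (edgeR adjusted p = 0.0375). A gene's summed count does not show which allele was transcribed, so these levels do not check the hel-1 label. The daf-2 gene had 141 and 132 CPM in hel-1;daf-2 worms, against 145 and 139 CPM in daf-2 worms (log2 fold change −0.06 ± 0.08, edgeR adjusted p = 0.652). The daf-16 gene had 161 and 145 CPM in hel-1;daf-2 worms, against 165 and 151 CPM in daf-2 worms (log2 fold change −0.05 ± 0.09, edgeR adjusted p = 0.741). For each of these genes the hel-1;daf-2 and daf-2 libraries overlapped. The hel-1 transcript was lower in both hel-1 libraries than in both wild-type libraries.

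In all, 7 genes were called (0.051% of those tested): 2 were higher (0.0146% of the genes tested) and 5 were lower (0.0364%) in hel-1;daf-2 worms. At an unadjusted p under 0.05 there were 550 higher genes (4.01%) and 1757 lower genes (12.8%). DESeq2, on the same genes and libraries, called 13 higher (0.0947%) and 243 lower (1.77%), the 7 among them. All 7 are protein-coding genes, all had non-overlapping libraries, and their coordinates are those of the WBcel235 annotation. Of the 67 tested genes named here, 20 overlap an opposite-strand gene by 21 to 141 exon bases, so that part of their counts may belong to that gene.

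The strongest call by adjusted p was sax-2 (III:5109701-5130676), a Furry-family gene needed to maintain the shape of sensory neurons. It had 177 and 157 CPM in hel-1;daf-2 worms, against 64.9 and 58 CPM in daf-2 worms. Both double-mutant libraries stood near the hel-1 libraries (176 and 166 CPM) and the wild-type libraries (159 and 185 CPM), and the daf-2 libraries alone were low. The log2 fold change was 1.45 ± 0.11 (edgeR adjusted p = 0.0142), 1.38 against daf-2 replicate 1 alone and 1.56 against daf-2 replicate 2 alone.

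F13H8.8 (II:6265609-6268083) had 7.24 and 11.3 CPM in hel-1;daf-2 worms, against 1.2 and 1.4 CPM in daf-2 worms. Neither hel-1 worms (1.72 and 1.37 CPM) nor wild type (1.69 and 1.15 CPM) reached the level of the double mutant, which alone was high. The log2 fold change was 2.83 ± 0.31 (edgeR adjusted p = 0.044), 2.95 against daf-2 replicate 1 alone and 2.76 against daf-2 replicate 2 alone.

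All 5 lower genes had more transcript in daf-2 worms than in wild type. The largest change was that of C08F11.7 (IV:13637275-13638666), with 0.932 and 1 CPM in hel-1;daf-2 worms, against 10.5 and 5.63 CPM in daf-2 worms (log2 fold change −3.05 ± 0.34, edgeR adjusted p = 0.044). Its fold change was −3.43 against daf-2 replicate 1 alone and −2.51 against daf-2 replicate 2 alone. Hel-1 worms had 0.53 CPM in both libraries and wild type 0.291 and 0.217 CPM, so the daf-2 libraries alone were clearly expressed.

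The gene saeg-1 (V:10852518-10865699) encodes a nuclear protein known as a suppressor of the activated cGMP-dependent kinase EGL-4. It had 54.9 and 45.4 CPM in hel-1;daf-2 worms, against 128 and 117 CPM in daf-2 worms (log2 fold change −1.29 ± 0.12, edgeR adjusted p = 0.0269). Against daf-2 replicate 1 alone the fold change was −1.35, and against daf-2 replicate 2 alone it was −1.18. The hel-1 libraries (46.3 and 48.8 CPM) and the wild-type libraries (42.6 and 34.8 CPM) lay in the range of the double mutant or below it. An exon of saeg-1 shares 57 bases with C29A12.6 on the other strand.

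The gene ctg-1 (I:7005443-7009200), of the CRAL-TRIO family of lipid-binding proteins, had 23.9 and 22.5 CPM in hel-1;daf-2 worms, against 40.4 and 43.3 CPM in daf-2 worms (log2 fold change −0.85 ± 0.08, edgeR adjusted p = 0.0269). Against daf-2 replicate 1 alone the fold change was −0.79, and against daf-2 replicate 2 alone it was −0.87. Here too the hel-1 libraries (21 and 21.2 CPM) and the wild-type libraries (19 and 18.8 CPM) were below both daf-2 libraries. It shares 141 exon bases with chd-1 on the other strand.

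Then sqst-1 (IV:12034282-12036891), which encodes the worm's p62/SQSTM1 receptor of selective autophagy, had 30.2 and 30.9 CPM in hel-1;daf-2 worms, against 54.3 and 63.6 CPM in daf-2 worms. Its log2 fold change was −0.95 ± 0.10 (edgeR adjusted p = 0.0269), −0.82 against daf-2 replicate 1 alone and −1.03 against daf-2 replicate 2 alone. In contrast to the lower genes above, its hel-1 libraries (52.7 and 59.3 CPM) were near the daf-2 libraries, while wild type had 24 and 24.7 CPM.

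The gene nlp-20 (IV:7642054-7643071), a neuropeptide-like gene, had 2.64 and 2.26 CPM in hel-1;daf-2 worms, against 7.28 and 7.4 CPM in daf-2 worms (log2 fold change −1.58 ± 0.16, edgeR adjusted p = 0.0269). The fold change of nlp-20 was −1.56 against each daf-2 library alone. It had 12.9 CPM in both hel-1 libraries, against 4.71 and 4.47 CPM in wild type, so that the double mutant was the lowest of the 4 genotypes and hel-1 the highest.

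**Figure D1:**
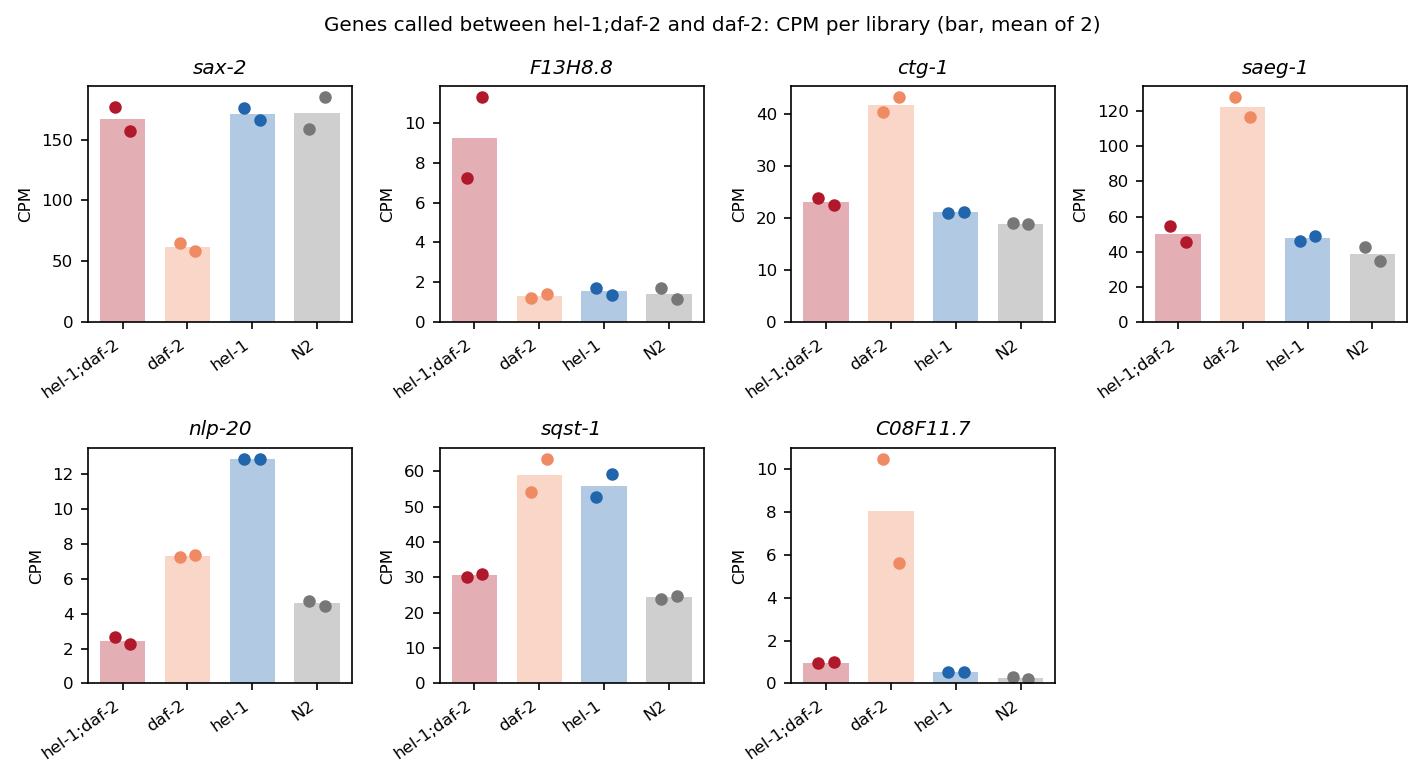
CPM (y axis, from 0) of the 7 called genes in each library (points) of hel-1;daf-2, daf-2, hel-1 and wild type (N2), with bars at the mean of 2 libraries. For sax-2, ctg-1, saeg-1 and C08F11.7 the daf-2 libraries stand apart from the other 3 genotypes, for F13H8.8 the double mutant does, and for sqst-1 and nlp-20 daf-2 and hel-1 are both high.

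The calls depended on which libraries estimated the spread. Against daf-2 replicate 1 alone, 1 gene was called higher (0.00718%) and 5 lower (0.0359%): sax-2 among the higher, and saeg-1, ctg-1, sqst-1, C08F11.7 and F45D11.14 among the lower. Those 6 were called in the same direction against daf-2 replicate 2 alone, where 3050 genes were called higher (21%) and 2762 lower (19%). Within the 4 libraries of the comparison and no others, edgeR called 0 genes, with 152 higher and 1111 lower at an unadjusted p under 0.05, and the adjusted p of the 7 genes was 0.292 to 0.467. Leaving out either hel-1;daf-2 library or either hel-1 library left none of the 7 called, and leaving out either wild-type library left 1, sax-2. Their fold changes kept their sign over the 8 fits that each leave out a library. The fits without a hel-1 or wild-type library keep every library of this contrast, so they could hardly shift the fold changes. The ranges were 1.37 to 1.56 for sax-2, −0.88 to −0.79 for ctg-1, −1.03 to −0.82 for sqst-1 and −1.42 to −1.15 for saeg-1. For nlp-20 the range was −1.69 to −1.46, for F13H8.8 2.49 to 3.12 and for C08F11.7 −3.43 to −2.51. The genes were called on these same libraries, so the ranges are not independent support.

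**Figure D2:**
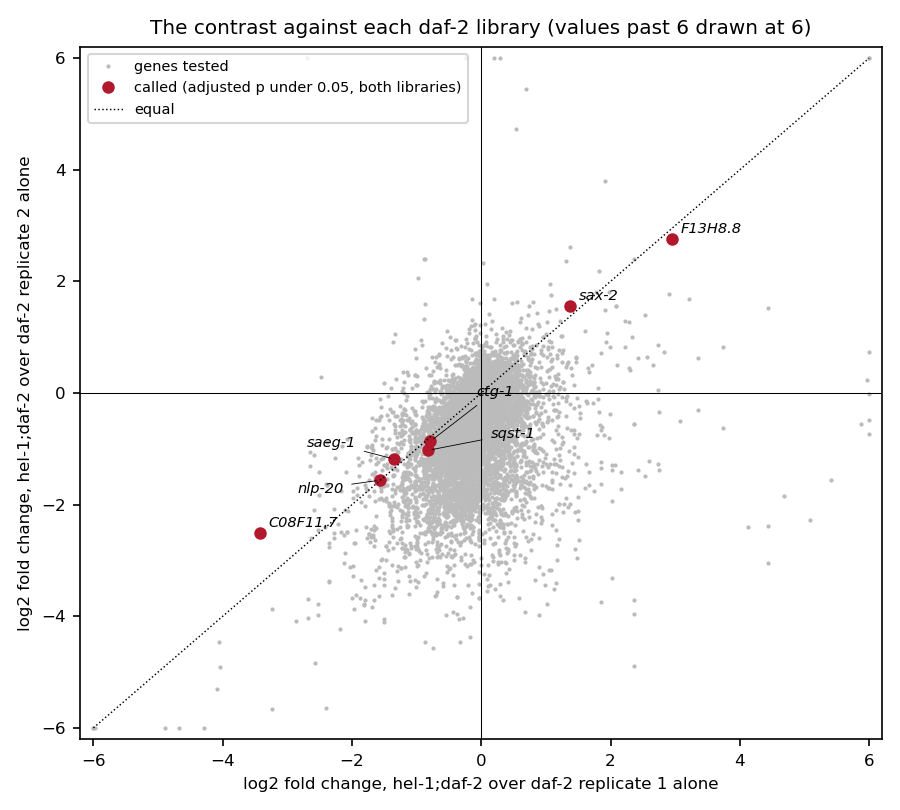
Log2 fold change of hel-1;daf-2 over daf-2 replicate 1 alone (x axis) and over daf-2 replicate 2 alone (y axis) for each tested gene (grey) and for the 7 called genes (red), with the line of equal values dotted. The 7 called genes run from −3.43 to 2.95 on the x axis. Most lie near that line, which the test that called them favours, and C08F11.7 lies farthest from it, at −3.43 and −2.51. Many grey points spread further down the y axis than along the x axis.

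The 5 further genes that the naming rule takes did not pass the threshold, with no overlap between the groups. F45D11.14 had 47.9 and 34.2 CPM in hel-1;daf-2 worms, against 169 and 364 CPM in daf-2 worms (log2 fold change −2.70 ± 0.34, edgeR adjusted p = 0.0776), with 13.2 and 15.9 CPM in hel-1 worms and 4.19 and 3.32 CPM in wild type. The levels of this gene were ordered daf-2, hel-1;daf-2, hel-1 and wild type, with no library out of order. The gene saeg-2, which encodes a second suppressor of activated EGL-4, had 18.6 and 29.5 CPM in hel-1;daf-2 worms, against 7.03 and 6.96 CPM in daf-2 worms (log2 fold change 1.78 ± 0.23, edgeR adjusted p = 0.0799), the opposite sign to saeg-1. The C-type lectin gene clec-97 had 24 and 26.9 CPM in hel-1;daf-2 worms, against 12.4 and 9.4 CPM in daf-2 worms (log2 fold change 1.23 ± 0.15, edgeR adjusted p = 0.0716). In clec-97, as in sax-2, the daf-2 libraries were the low ones, since hel-1 worms had 22.9 and 22.8 CPM and wild type 21.8 and 26 CPM. The P-glycoprotein transporter gene pgp-1 had 25 and 12.6 CPM in hel-1;daf-2 worms, against 4.82 and 5.51 CPM in daf-2 worms (log2 fold change 1.86 ± 0.29, edgeR adjusted p = 0.115). Its double-mutant libraries differed from each other by more CPM than the lower one did from the daf-2 libraries. Y39B6A.42 had 48.4 and 47.6 CPM in hel-1;daf-2 worms, against 39.3 and 34.9 CPM in daf-2 worms (log2 fold change 0.37 ± 0.08, edgeR adjusted p = 0.204).

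Over all genes, both hel-1;daf-2 libraries lay below both daf-2 libraries for 3917 genes (28.5%) and above both for 3399 (24.8%). Separation by at least 2-fold was uneven in direction: 240 genes (1.75%) were at least 2-fold below both daf-2 libraries and 22 (0.16%) at least 2-fold above both. With a mean of at least 5 CPM in the higher group, these were 33 and 4 genes. Among the 33, snt-5, a synaptotagmin gene, had 5.26 and 5.46 CPM in hel-1;daf-2 worms, against 11.6 and 11.3 CPM in daf-2 worms (edgeR adjusted p = 0.0831). A carnitine palmitoyltransferase gene, cpt-6, had 2.77 and 2.63 CPM in hel-1;daf-2 worms, against 7 and 8.58 CPM in daf-2 worms (edgeR adjusted p = 0.113).

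The genes that DAF-16 activates were read as a list of 43, of which 39 were tested. None was called by edgeR, 17 of 39 were lower at an unadjusted p under 0.05 (12.8% of all genes were) and 0 were higher (4.01% of all genes were). DESeq2 called 7 lower and 0 higher, against 1.77% and 0.0947% of all genes. Both hel-1;daf-2 libraries lay below both daf-2 libraries for 25 of the 39 (64.1%, against 28.5% of all genes) and above both for 2 (5.13%, against 24.8%). Their median log2 fold change was −0.63, against −0.02 over all genes. It was −0.30 against daf-2 replicate 1 alone, where all genes had a median of 0.01, and −0.73 against daf-2 replicate 2 alone, where all genes had −0.01. With daf-2 replicate 1 alone edgeR called 0 of the 39, and with daf-2 replicate 2 alone it called 21 lower and 1 higher (19% and 21% of all genes). Of the 39, 31 were lower than each daf-2 library by fitted fold change (35% of all genes were).

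Among the DAF-16-activated genes with the wider separations was dod-6, named for lying downstream of DAF-16. It had 35.8 and 43.8 CPM in hel-1;daf-2 worms, against 83.1 and 165 CPM in daf-2 worms (log2 fold change −1.64 ± 0.33, edgeR adjusted p = 0.204). The double mutant was below both daf-2 libraries but far above hel-1 (1.43 and 2.37 CPM) and wild type (2.24 and 1.09 CPM). The gluconeogenesis gene pck-1 had 55.4 and 59.1 CPM in hel-1;daf-2 worms, against 97.2 and 197 CPM in daf-2 worms (log2 fold change −1.36 ± 0.28, edgeR adjusted p = 0.204, DESeq2 adjusted p = 9.65e-07).

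The ferritin gene ftn-1 had 5.59 and 2.29 CPM in hel-1;daf-2 worms, against 14.7 and 11.3 CPM in daf-2 worms (log2 fold change −1.72 ± 0.45, edgeR adjusted p = 0.257). For tps-1, a trehalose-phosphate synthase gene, the values were 24.6 and 24.2 CPM in hel-1;daf-2 worms, against 34.4 and 41.3 CPM in daf-2 worms (log2 fold change −0.63 ± 0.12, edgeR adjusted p = 0.191). Both genes kept the groups apart. The gene cpr-2, whose protein is a cathepsin B-like protease, had 0.481 and 1.25 CPM in hel-1;daf-2 worms, against 8.26 and 45 CPM in daf-2 worms (edgeR adjusted p = 0.195), with daf-2 replicate 2 far above replicate 1. A glyceraldehyde-3-phosphate dehydrogenase gene, gpd-2, which shares 22 exon bases with mai-1 on the same strand, had 220 and 230 CPM in hel-1;daf-2 worms, against 288 and 422 CPM in daf-2 worms (edgeR adjusted p = 0.249).

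The widely used DAF-16 reporter gene sod-3, a mitochondrial superoxide dismutase, had 19.4 and 19.2 CPM in hel-1;daf-2 worms, against 22.8 and 32.5 CPM in daf-2 worms (log2 fold change −0.52 ± 0.16, edgeR adjusted p = 0.267). Its fold change was −0.23 against daf-2 replicate 1 alone and −0.72 against daf-2 replicate 2 alone. In hel-1 worms sod-3 had 2.39 and 2.46 CPM, and in wild type 1.51 and 1.55 CPM. The double mutant thus sat just under the lower daf-2 library and well clear of both genotypes with a normal daf-2 gene.

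In other members daf-2 replicate 2 was again the highest library. The lysozyme gene lys-7 had 102 and 133 CPM in hel-1;daf-2 worms, against 107 and 374 CPM in daf-2 worms (log2 fold change −1.03 ± 0.59, edgeR adjusted p = 0.346), and its fold change was 0.14 against daf-2 replicate 1 alone. The metallothionein gene mtl-1 had 9.26 and 19.6 CPM in hel-1;daf-2 worms, against 19.1 and 44.4 CPM in daf-2 worms (edgeR adjusted p = 0.32), and dod-3 had 15.1 and 30.2 CPM in hel-1;daf-2 worms, against 45.7 and 63.8 CPM in daf-2 worms (edgeR adjusted p = 0.267). For lys-7 and mtl-1 the groups overlapped.

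The 2 best expressed members by CPM did not lie below both daf-2 libraries. The small heat shock protein gene sip-1 had 3187 and 3032 CPM in hel-1;daf-2 worms, against 2755 and 2564 CPM in daf-2 worms (log2 fold change 0.23 ± 0.13, edgeR adjusted p = 0.341). The gene lea-1, which encodes a late-embryogenesis-abundant protein linked to desiccation tolerance, had 2711 and 2627 CPM in hel-1;daf-2 worms, against 2750 and 2054 CPM in daf-2 worms (edgeR adjusted p = 0.731). Since these genes dominate the sum, the summed level of the whole list was 7390 and 7327 CPM in hel-1;daf-2 worms, against 7404 and 7662 CPM in daf-2 worms, and 2605 and 3434 CPM in hel-1 worms, against 2454 and 2743 CPM in wild type. Without use of the daf-2 libraries, 35 of the 39 members (89.7%, against 33.3% of all genes) lay above both wild-type libraries in both hel-1;daf-2 libraries.

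**Figure D3:**
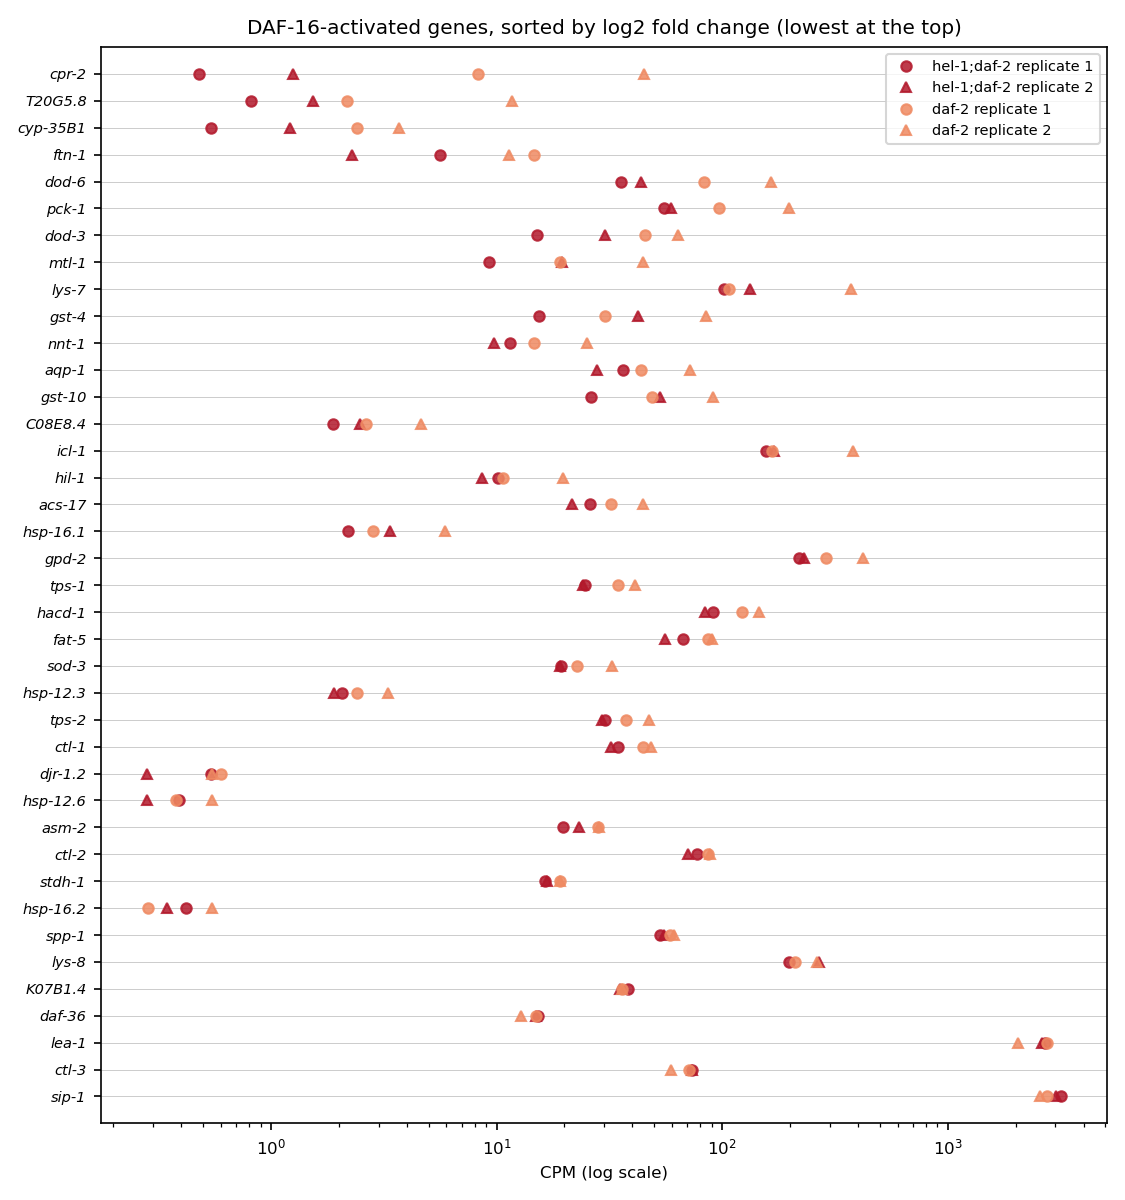
CPM on a log scale (x axis) of the 39 tested DAF-16-activated genes (y axis, lowest log2 fold change at the top) in the hel-1;daf-2 libraries (dark red) and the daf-2 libraries (orange), with circles for replicate 1 and triangles for replicate 2. In 25 of 39 genes both dark red points lie left of both orange points, and the daf-2 triangle is often the farthest right, as in lys-7 with 374 CPM.

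Genes repressed in daf-2 mutants through DAF-16 had a median at 0. Of 22 listed, 19 were tested, edgeR called 0 and DESeq2 called 0. At an unadjusted p under 0.05 in edgeR, 2 were higher (4.01% of all genes were) and 1 was lower (12.8% of all genes were). The median was 0.00, with 0.17 against daf-2 replicate 1 alone and −0.17 against daf-2 replicate 2 alone. The 28 tested components of insulin/IGF-1 signaling had a median of 0.09 (0.01 and 0.21 against daf-2 replicates 1 and 2 alone), with 0 called by edgeR, 0 at an unadjusted p under 0.05 and 0 called by DESeq2.

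Genes of the HIF-1 pathway and sulfide response, the worm's reaction to low oxygen and hydrogen sulfide, had a negative median against both daf-2 libraries. Of 20 tested, edgeR called 0, 9 were lower (12.8% of all genes were) and 0 higher (4.01%) at an unadjusted p under 0.05, and DESeq2 called 3 lower (1.77% of all genes). In this list 13 genes (65%) lay below both daf-2 libraries, against 28.5% of all genes, and the median was −0.35 (−0.16 and −0.45 against daf-2 replicates 1 and 2 alone). The gene egl-9, the prolyl hydroxylase that marks HIF-1 for destruction, had 11.6 and 10.8 CPM in hel-1;daf-2 worms, against 17.7 and 18.5 CPM in daf-2 worms (log2 fold change −0.69 ± 0.10, edgeR adjusted p = 0.113). Its fold change was near equal against both, at −0.65 and −0.69. Hel-1 worms also had less egl-9 (13.7 and 13.2 CPM) than wild type (18.1 and 17.2 CPM). The sulfide:quinone oxidoreductase gene sqrd-1 had 2.58 and 1.66 CPM in hel-1;daf-2 worms, against 6.59 and 11.6 CPM in daf-2 worms (log2 fold change −2.10 ± 0.34, edgeR adjusted p = 0.121). The gene semo-1, a selenium-binding protein relative that breaks down methanethiol, had 13.2 and 11.8 CPM in hel-1;daf-2 worms, against 25.8 and 75.5 CPM in daf-2 worms (edgeR adjusted p = 0.247). The best expressed members were hif-1, with 115 ± 5.5 CPM in hel-1;daf-2 worms and 138 ± 7.3 CPM in daf-2 worms (SD, n = 2 each), and cth-2, a cystathionine gamma-lyase gene, with 153 and 168 CPM in hel-1;daf-2 worms, against 167 and 220 CPM in daf-2 worms.

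Larger list medians came with daf-2 replicate 2. Cuticle collagens, the structural proteins of the worm's exoskeleton, had a median of −1.12 over 134 tested members, with 71 lower (12.8% of all genes were) and 0 higher (4.01%) at an unadjusted p under 0.05, 0 called by edgeR and 16 called lower by DESeq2 (1.77% of all genes). Their median was −0.25 against daf-2 replicate 1 alone, where 0 were called, and −1.52 against daf-2 replicate 2 alone, where 94 were called lower (19% of all genes were). The collagen gene col-140 had 1090 and 1201 CPM in hel-1;daf-2 worms, against 1333 and 2529 CPM in daf-2 worms (edgeR adjusted p = 0.267), and col-122 had a log2 fold change of −0.32 against daf-2 replicate 1 alone and −1.25 against daf-2 replicate 2 alone. FMRFamide-like neuropeptide genes had medians of −0.12 and −2.02 against daf-2 replicates 1 and 2 alone over 30 members, and the 50 genes of the nlp neuropeptide family, where nlp-20 was the member called, had −0.13 and −1.63. Hedgehog-related and patched-related genes, which in the worm act in cuticle and molting, had −0.38 and −0.98 over 51 members. Of these, 32 (62.7%, against 28.5% of all genes) lay below both daf-2 libraries.

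**Figure D4:**
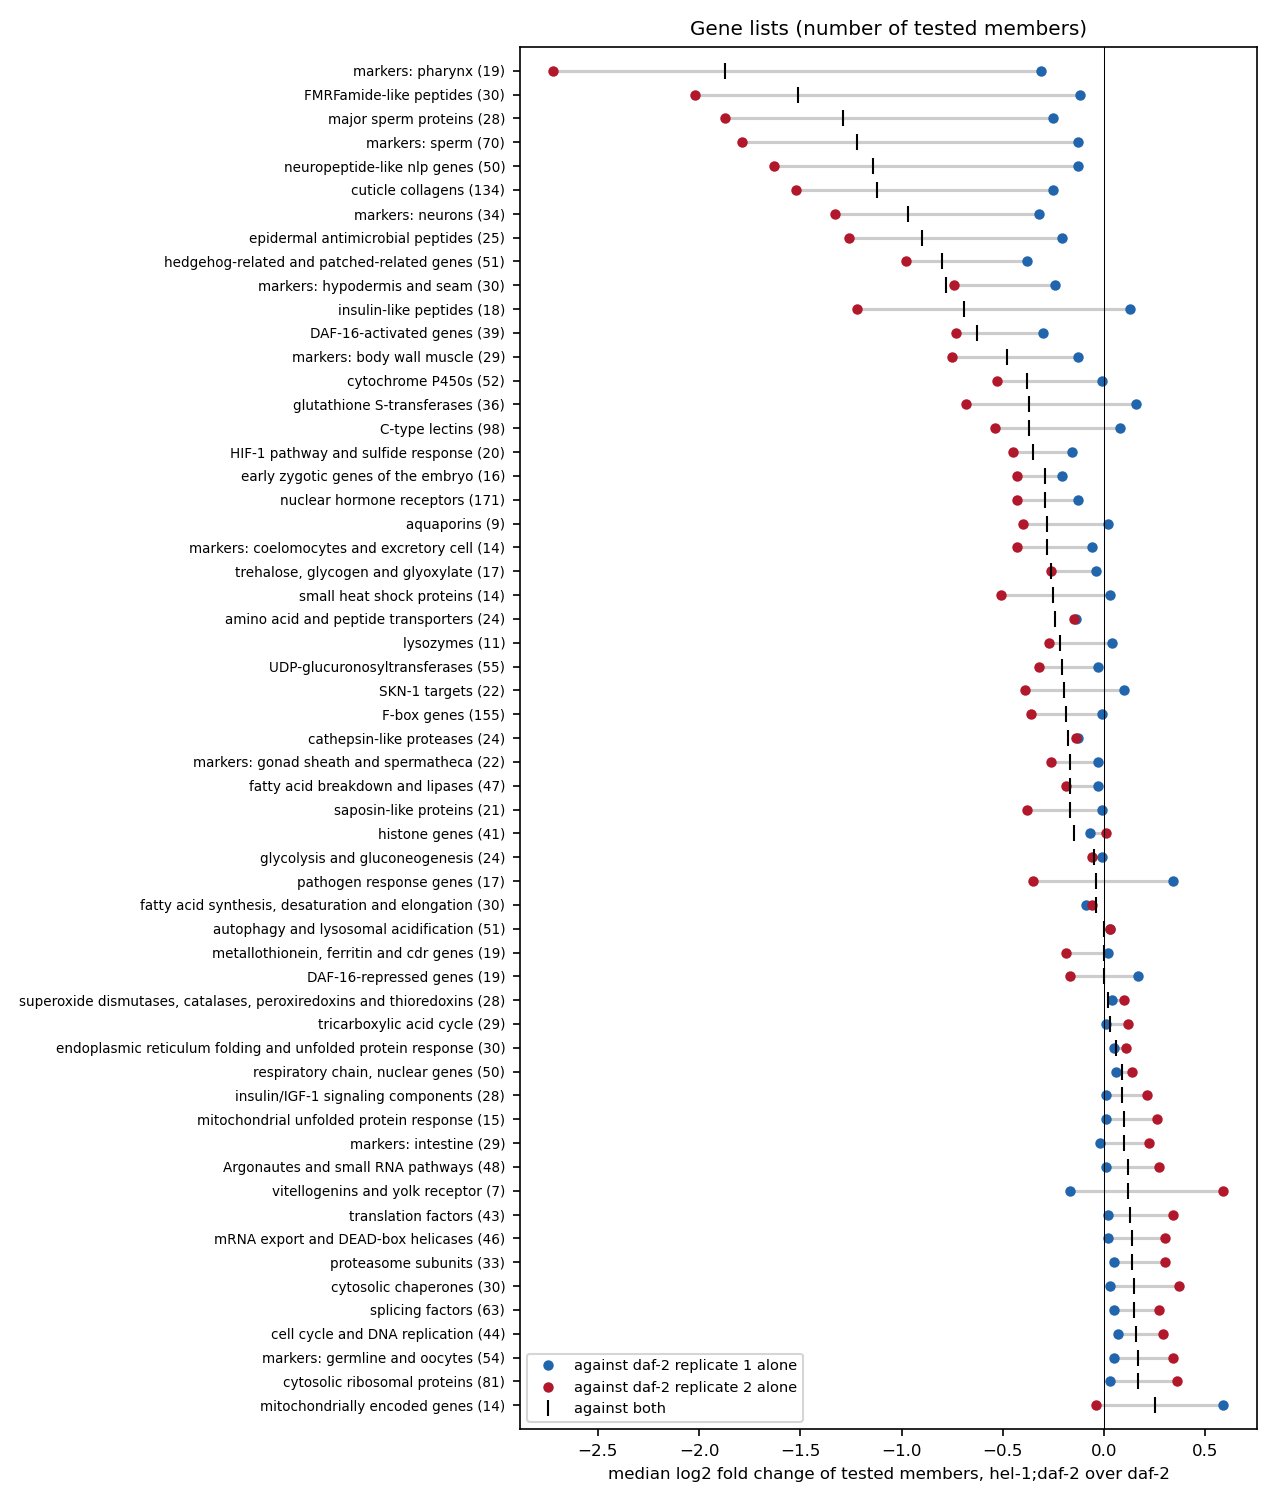
Median log2 fold change (x axis) of the tested members of 57 gene lists (y axis, number of tested members in brackets) against daf-2 replicate 1 alone (blue), replicate 2 alone (red) and both (black tick). Medians span −0.38 to 0.59 against replicate 1 and −2.72 to 0.59 against replicate 2, and 52 of the 57 lists lie farther from 0 against replicate 2.

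Summed levels of several sets of cell type markers moved with these lists. In whole worms, fewer cells of a type and less RNA per cell cannot be told apart. Of 29 body wall muscle markers, all tested, 22 (75.9%, against 28.5% of all genes) lay below both daf-2 libraries, and the summed level of the tested markers was 4894 to 4934 CPM in hel-1;daf-2 worms, against 5255 to 8986 CPM in daf-2 worms. The muscle myosin gene unc-54 had 265 and 269 CPM in hel-1;daf-2 worms, against 339 and 1102 CPM in daf-2 worms, and the actin gene act-4 had 750 and 728 CPM in hel-1;daf-2 worms, against 841 and 1337 CPM in daf-2 worms. Of 31 pharynx markers, 19 were tested and 9 (47.4%, against 28.5%) lay below both daf-2 libraries, with sums of 54.1 to 55.7 CPM in hel-1;daf-2 worms, against 65.1 to 206 CPM in daf-2 worms, and abu-5 was at 0 in all 4 libraries. The pharyngeal myosin gene myo-2 had 1.47 and 2.79 CPM in hel-1;daf-2 worms, against 2.68 and 48.2 CPM in daf-2 worms, and myo-1 had 1.98 and 3.23 CPM in hel-1;daf-2 worms, against 2.96 and 55.2 CPM in daf-2 worms. For both myosins a single library, daf-2 replicate 2, was high.

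Of 42 neuron markers, 34 were tested and 25 (73.5%, against 28.5% of all genes) lay below both daf-2 libraries, with sums of 396 to 398 CPM in hel-1;daf-2 worms, against 424 to 544 CPM in daf-2 worms. Of 31 hypodermis and seam markers, 30 were tested and 19 (63.3%, against the same 28.5%) lay below both, with sums of 3510 to 3661 CPM in hel-1;daf-2 worms, against 4168 to 7275 CPM in daf-2 worms. Of 83 sperm markers, 70 were tested and 37 (52.9%, against 28.5%) lay below both, with sums of 272 to 275 CPM in hel-1;daf-2 worms, against 290 to 606 CPM in daf-2 worms, and msp-32, msp-74 and nspd-8 at 0 in all 4 libraries. The major sperm protein gene msp-59 had 5.71 and 5.65 CPM in hel-1;daf-2 worms, against 7.09 and 22.4 CPM in daf-2 worms. Like other members of its family it has near-identical copies, so its value is uncertain.

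Germline and oocyte markers went the other way: 36 of 54 (66.7%, against 24.8% of all genes) lay above both daf-2 libraries, with sums of 33779 to 34736 CPM in hel-1;daf-2 worms, against 26596 to 33523 CPM in daf-2 worms. Intestine markers summed to 109423 to 120081 CPM in hel-1;daf-2 worms, between the daf-2 libraries at 129067 and 83172 CPM, and 5 of 29 (17.2%, against 28.5%) lay below both. The yolk protein gene vit-2, which makes up much of that sum and has near-identical copies, had 28393 and 25242 CPM in hel-1;daf-2 worms, against 29651 and 20061 CPM in daf-2 worms. No muscle, neuron, hypodermis, germline or intestine marker was at 0 in all 4 libraries, and the part of these markers in the results on lists was not tested. Against daf-2 replicate 1 alone, where the DAF-16-activated list had −0.30, the medians were −0.13 for muscle, −0.31 for pharynx, −0.32 for neurons, −0.24 for hypodermis, −0.13 for sperm, −0.02 for intestine and 0.05 for germline.

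Lists of cell cycle, proteasome, ribosomal protein, splicing and mRNA export genes had small positive medians. Of 44 cell cycle and DNA replication genes, 36 (81.8%, against 24.8% of all genes) lay above both daf-2 libraries, with a median of 0.16 (0.07 and 0.29 against daf-2 replicates 1 and 2 alone). The same held for 23 of 33 proteasome subunits (69.7%, against 24.8%, median 0.14) and 42 of 81 cytosolic ribosomal proteins (51.9%, against 24.8%, median 0.17, and 0.03 against daf-2 replicate 1 alone), with none called by edgeR, 0 called by DESeq2 in each of the 3 lists, and 5, 0 and 1 higher at an unadjusted p under 0.05 (4.01% of all genes were). The ribosomal protein gene rpl-3 had 4324 and 4216 CPM in hel-1;daf-2 worms, against 4268 and 3334 CPM in daf-2 worms. Splicing factors, a group close to the known role of HEL-1 relatives, had 39 of 63 members (61.9%, against 24.8% of all genes) above both daf-2 libraries and a median of 0.15 (0.05 and 0.27 against daf-2 replicates 1 and 2 alone). Genes of mRNA export and DEAD-box helicases had a median of 0.14 over 46 members (0.02 and 0.30 against daf-2 replicates 1 and 2 alone). In both lists edgeR and DESeq2 called 0 members, with 12 splicing factors higher and 4 lower, and 3 export and helicase genes higher and 0 lower, at an unadjusted p under 0.05 (4.01% of all genes higher and 12.8% lower).

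The effect of the hel-1 mutation in daf-2 worms was then set against its effect in otherwise wild-type worms, by testing the difference of the 2 log2 fold changes (hel-1;daf-2 over daf-2, minus hel-1 over wild type) in the same model. The edgeR test called 113 genes, 10 with a positive difference (0.0729%) and 103 with a negative one (0.751%), and all 7 genes described first were among them. The difference contains the hel-1;daf-2 over daf-2 fold change itself, so the overlap with those 7 is not separate support. All 103 negative genes had a hel-1 over wild-type fold change above 0, and 99 had a hel-1;daf-2 over daf-2 fold change below 0, a pattern that the choice by the difference itself favours. Both hel-1;daf-2 libraries lay below both daf-2 libraries for 91 of the 103 (28.5% of all genes did). By fitted fold change, 95 were lower than each daf-2 library alone (35% of all genes were). The choice by the difference favours these counts too, so they are not separate support. Without daf-2 replicate 2, 135 genes were called, 90 of the 113 among them. Leaving out daf-2 replicate 1 instead raised the number of calls far more. Leaving out a hel-1;daf-2, hel-1 or wild-type library cut it, at the lowest to a small part of the 113. In all 8 fits that each leave out a library, 6 genes were called: warf-1, fat-5, nlp-20, F22B8.7, sqst-1 and F02E9.10.

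Of these 6, fat-5 encodes a delta-9 fatty acid desaturase that acts on palmitic acid and is on the DAF-16-activated list. It had 67.2 and 55.6 CPM in hel-1;daf-2 worms, against 86.5 and 89.8 CPM in daf-2 worms, whereas it had 95.8 and 124 CPM in hel-1 worms, against 19.9 and 26.1 CPM in wild type. The difference of the 2 effects was −2.78 ± 0.23 (edgeR adjusted p = 0.00565). The effect in the daf-2 background alone, −0.52 ± 0.16, was not called (edgeR adjusted p = 0.267). The sister gene fat-6, which makes oleic acid, showed a difference of −1.11 ± 0.18 (edgeR adjusted p = 0.0406), with 335 and 286 CPM in hel-1;daf-2 worms, against 366 and 342 CPM in daf-2 worms, and 358 and 445 CPM in hel-1 worms, against 210 and 214 CPM in wild type. Its near relative fat-7 had 11.9 and 4.8 CPM in hel-1;daf-2 worms, against 13 and 12.5 CPM in daf-2 worms, and 308 and 318 CPM in hel-1 worms, against 86.8 and 57.4 CPM in wild type (difference −2.73 ± 0.48, edgeR adjusted p = 0.0558).

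The largest difference of the 6 was that of warf-1, a small GTPase gene of the ARF family, at −5.91 ± 0.36 (edgeR adjusted p = 0.00137). It had 0.361 and 0.47 CPM in hel-1;daf-2 worms, against 0.504 and 0.474 CPM in daf-2 worms, and 37.8 and 41.2 CPM in hel-1 worms, against 0.61 and 0.931 CPM in wild type, so that the hel-1 single mutant alone was high. It shares 60 exon bases with nep-16 on the other strand, which had 0 to 5 counts in each of the 8 libraries. F22B8.7 had 13.4 and 14.4 CPM in hel-1;daf-2 worms, against 13.1 and 17 CPM in daf-2 worms, and 10.4 and 8.32 CPM in hel-1 worms, against 0.61 and 0.776 CPM in wild type (difference −3.87 ± 0.29, edgeR adjusted p = 0.00338). Here wild type alone was low. F02E9.10 had 68.9 and 68.7 CPM in hel-1;daf-2 worms, against 62.5 and 58.5 CPM in daf-2 worms, and 17 and 17.6 CPM in hel-1 worms, against 67.8 and 68.2 CPM in wild type (difference 2.16 ± 0.09, edgeR adjusted p = 0.000171), with hel-1 alone low. For sqst-1 the difference was −2.15 ± 0.14 (edgeR adjusted p = 0.00137) and for nlp-20 −3.07 ± 0.22 (edgeR adjusted p = 0.00244).

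**Figure D5:**
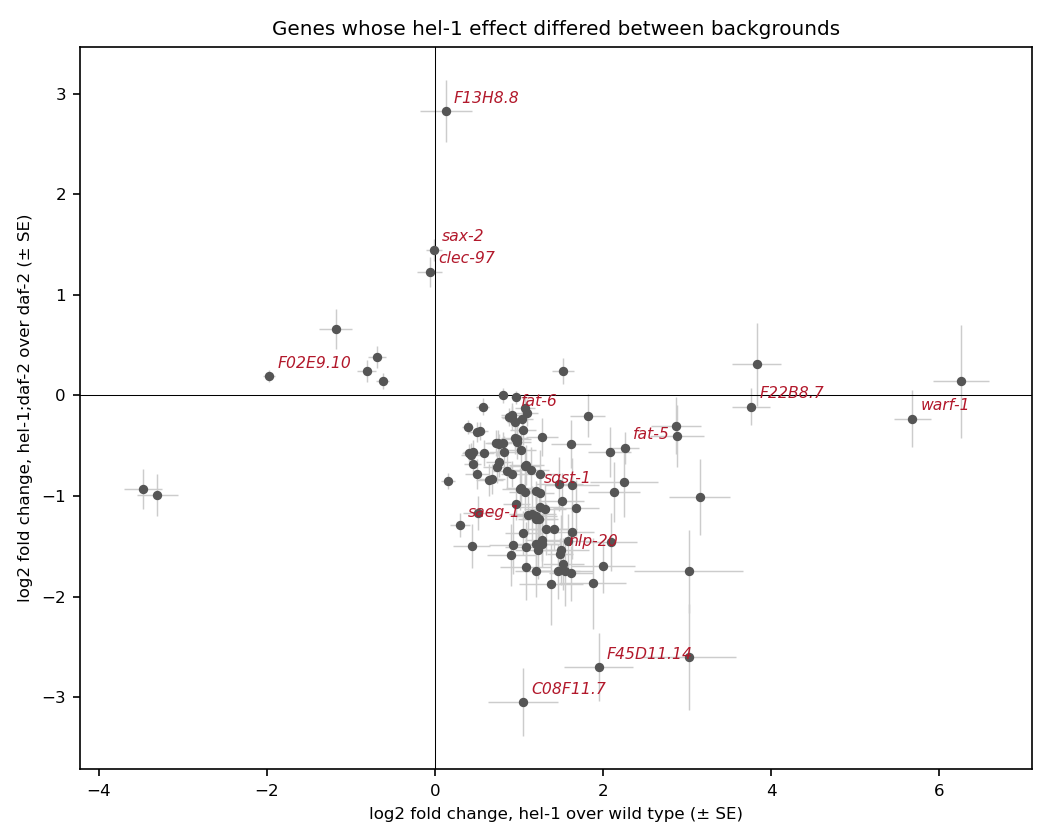
Log2 fold change of hel-1;daf-2 over daf-2 (y axis) and of hel-1 over wild type (x axis), each with SE bars, for the 113 genes whose hel-1 effect differed between the backgrounds. Most points lie at the lower right, as sqst-1 does at −0.95 and 1.20, while sax-2 and F13H8.8 lie above 0 on the y axis with values near 0 on the x axis.

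Several further genes with a negative difference, chosen here after their values were seen, encode enzymes and neuronal proteins. The histidine ammonia-lyase gene haly-1 had 16.5 and 16.4 CPM in hel-1;daf-2 worms, against 29.7 and 52.7 CPM in daf-2 worms, and 52 and 45.3 CPM in hel-1 worms, against 22.9 and 16 CPM in wild type (difference −2.65, edgeR adjusted p = 0.0276). The urocanate hydratase gene uroc-1, whose enzyme takes the following step of histidine breakdown, had 9.08 and 7.28 CPM in hel-1;daf-2 worms, against 17.9 and 27.5 CPM in daf-2 worms, and 33.2 and 27.6 CPM in hel-1 worms, against 14 and 11.2 CPM in wild type (difference −2.75, edgeR adjusted p = 0.0184). In both genes the double mutant was below daf-2 and hel-1 was above wild type, with no overlap. Genes of purine synthesis enzymes had smaller differences, −0.99 for pfas-1, −1.29 for paic-1 and −1.15 for atic-1. For pfas-1 the levels were 41 and 41.8 CPM in hel-1;daf-2 worms, against 62.2 and 60.9 CPM in daf-2 worms, and 35.2 and 36.1 CPM in hel-1 worms, against 29.3 and 24.1 CPM in wild type. The gene dao-3, a folate-dependent dehydrogenase, had 24.6 and 25.5 CPM in hel-1;daf-2 worms, against 37.1 and 42.9 CPM in daf-2 worms (difference −1.13, edgeR adjusted p = 0.0184).

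The touch receptor neuron genes mec-7, a beta-tubulin, and mec-17, a tubulin acetyltransferase, had differences of −2.76 and −2.95. For mec-17, which shares 51 exon bases with arf-5 on the other strand, the values were 2.07 and 1.66 CPM in hel-1;daf-2 worms, against 5.2 and 7.35 CPM in daf-2 worms, and 6.71 and 6.92 CPM in hel-1 worms, against 3.37 and 2.55 CPM in wild type. The synaptic vesicle priming gene unc-13 had 11 and 8.41 CPM in hel-1;daf-2 worms, against 16.9 and 19.8 CPM in daf-2 worms (difference −1.95, edgeR adjusted p = 0.02). The infection response gene irg-7 had 161 and 164 CPM in hel-1;daf-2 worms, against 258 and 299 CPM in daf-2 worms, and 398 and 485 CPM in hel-1 worms, against 255 and 213 CPM in wild type (difference −1.69, edgeR adjusted p = 0.0184). In each of these 4 neuronal and immune genes the libraries of the double mutant were below both daf-2 libraries, but none of them was called in that comparison by edgeR.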

How the data were processed

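Expected counts per gene were deposited by the authors as 1 table per library; per the file headers and the submitters' processing notes they come from RSEM 1.3.1. The notes also list FastQC, cutadapt, TopHat2, Bowtie, HTSeq and edgeR, with WBcel235 and ce11 as builds. The aligner behind the counts and any use of strand are not given in the sources used here, so genes overlapping on opposite strands cannot be told apart. Between 2.03% and 2.79% of a library's values were not whole, and all were rounded. Of 46904 genes, 46817 are in the WBcel235 annotation and 13722 passed edgeR's filterByExpr; these hold 99.93% or more of the counts of every library.

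One model of 4 group means over all 8 libraries was fitted with edgeR 4.0.16 in R 4.3.3 (quasi-likelihood, TMM scaling, 4 residual degrees of freedom, common biological coefficient of variation 0.168). The interaction is the log2 fold change of hel-1;daf-2 over daf-2 minus that of hel-1 over wild type. With 2 libraries a group, an exact permutation test cannot go below 0.333, so none was used. P-values measure the spread between repeats of 1 strain each, and depth limits genes of few CPM. The pipeline was tested on simulated data. Alternatives were DESeq2 1.42.0, its size factors in edgeR, no filter, only the 4 libraries, a replicate block and leaving out each library. Sequences were not used here.

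The members and gene lists were chosen with earlier results of these data known. Named genes were hel-1, daf-2 and daf-16; per direction up to 12 called genes of at least 5 CPM with no overlap, called against each daf-2 library, filled to 6 without that condition and then by the smallest unadjusted p; from each list described, called members or the 2 best expressed; and up to 5 genes per direction by interaction adjusted p (2 unnamed pseudogenes on V are left out). Other list members and interaction genes were named after their values were seen.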

Additional observations from a re-analysis of the deposited data

Results flagged for a closer look

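Each gene here had a hel-1 effect that differed between the daf-2 and wild-type backgrounds, by the edgeR test of the difference (log2 scale, daf-2 background minus wild-type background). In all 8 fits that each leave out a library the test called warf-1 (−5.91), F22B8.7 (−3.87), nlp-20 (−3.07), fat-5 (−2.78), sqst-1 (−2.15) and F02E9.10 (2.16). For warf-1 and F02E9.10 the hel-1 single mutant alone stood apart.

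The 9 other genes called with a positive difference were F13H8.8 (2.70), sax-2 (1.46), clec-97 (1.29), F42A9.6 (1.05), kin-35 (1.83), C27C7.1 (1.07), C05D12.3 (0.76) and a pair of unnamed pseudogenes on V (2.54 and 2.31). F42A9.6 had 49.2 and 56.2 CPM in hel-1;daf-2 worms, against 48.3 and 41.1 CPM in daf-2 worms, and 33.1 and 29.1 CPM in hel-1 worms, against 54 and 55.2 CPM in wild type. Without daf-2 replicate 1, F13H8.8 was still called, and it was lost when any other library was left out (highest adjusted p = 0.178). For sax-2 the adjusted p was 0.00149 to 0.0818 over those fits.

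Of the 103 genes called with a negative difference, 25 are named here, some by the naming rule and some after their values were seen. Beside the 5 above they were F45D11.14 (−4.65), C08F11.7 (−4.10), saeg-1 (−1.58) and ctg-1 (−1.01), followed by col-34 (−3.22), asp-12 (−2.99), mec-17 (−2.95), mec-7 (−2.76), uroc-1 (−2.75), clec-52 (−2.74), haly-1 (−2.65), pho-11 (−2.41), unc-13 (−1.95), acs-17 (−1.78), irg-7 (−1.69), paic-1 (−1.29), atic-1 (−1.15), dao-3 (−1.13), fat-6 (−1.11) and pfas-1 (−0.99). Each of these lost its call in at least 3 of the 8 fits and kept its sign. The intestinal acid phosphatase gene pho-11 had 77.8 and 97.3 CPM in hel-1;daf-2 worms, against 201 and 250 CPM in daf-2 worms, and 175 and 150 CPM in hel-1 worms, against 96.8 and 60.5 CPM in wild type. The aspartyl protease gene asp-12 had 12.9 and 17.2 CPM in hel-1;daf-2 worms, against 38.1 and 39.2 CPM in daf-2 worms. The C-type lectin gene clec-52 had 25 and 29.8 CPM in hel-1;daf-2 worms, against 53.4 and 83.9 CPM in daf-2 worms, and 4.43 and 4.8 CPM in hel-1 worms, against 1.95 and 1.49 CPM in wild type.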

How the results depend on the processing

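The numbers of calls depended on the processing, and the cause was not tested. Between the double mutant and daf-2 there were 2 higher and 5 lower genes, 2 and 3 of them by more than 2-fold. DESeq2 gave 13 and 243 (7 and 141 by more than 2-fold; an adjusted p was not given for 1863 genes), no filter gave 28 and 582 (15 and 365), and DESeq2's size factors in edgeR gave 4 and 6 (4 and 4). Only the 4 libraries gave 0 and 0 (0 and 0). Over the fits that each leave out a library the numbers were 0 to 3050 higher and 0 to 2762 lower, and 0 to 19 and 0 to 2037 by more than 2-fold, with the highest values without daf-2 replicate 1. For the interaction, 10 positive and 103 negative calls became 41 and 578 with DESeq2 and 74 and 1141 with no filter, and 1 to 3523 and 6 to 3141 over the fits without 1 library. Replicate numbers do not mark a shared batch in the labels (correlation of deviations between the 2 groups 0.184). The replicate 1 deviations of daf-2 and wild type correlated at −0.479, and those of hel-1 and wild type at 0.226. The remaining pairs of genotypes had 0.00617 to 0.0467. By the negative value, daf-2 replicate 2 tended to deviate in the same direction as wild-type replicate 1, and the source was not tested. With the replicate block there were 2 higher and 9 lower genes, 2 and 7 of them by more than 2-fold. Of the 7 called genes, 6 stayed called with that block. All 7 stayed called with DESeq2, DESeq2's size factors and no filter. Log2 fold changes that changed sign did so without 1 library: hel-1 (−0.04 to 0.21), daf-2 (−0.10 to 0.01), daf-16 (−0.11 to 0.05), F22B8.7 (−0.25 to 0.10), lys-7 (−1.63 to 0.14), lea-1 (−0.03 to 0.41) and vit-2 (−0.14 to 0.45). List medians moved past their replicate spread for 34 lists without daf-2 replicate 1 and 33 without daf-2 replicate 2.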

Other observations

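A pair of the genes whose hel-1 effect differed between backgrounds lie close together on chromosome IV, with 6341 bases between warf-1 and nlp-20. These 2 genes are on opposite strands, each read toward the other. The protein-coding gene nep-16 lies between them on the other strand from warf-1, with which it shares 60 exon bases. It had too few reads to be tested, with 3 and 4 counts in hel-1;daf-2 worms, against 5 and 0 in daf-2 worms, and 1 and 2 in hel-1 worms, against 4 and 0 in wild type. The nearest tested genes outside the pair had near-equal levels in all genotypes. On the warf-1 side, plp-1 had 279 and 272 CPM in hel-1;daf-2 worms, against 264 and 254 CPM in daf-2 worms, and 264 and 268 CPM in hel-1 worms, against 259 and 278 CPM in wild type. On the nlp-20 side, hmg-5 had 70.6 and 73 CPM in hel-1;daf-2 worms, against 68.9 and 68.1 CPM in daf-2 worms, and 66.3 and 67.3 CPM in hel-1 worms, against 66.7 and 72.7 CPM in wild type. The pair was picked after its values were seen.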
